A study of Mus musculus with 4 samples.

Results

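The mitochondrial ribosomal protein genes were described here as the rows of the count tables whose symbol is Mrpl or Mrps followed by a number and at most 1 letter. There are 77 such genes among the 27933 listed, 48 with a large subunit name (Mrpl) and 29 with a small subunit name (Mrps). They were measured by RNA-seq in mouse melanocyte stem cells, which renew the pigment cells of hair, purified by FACS. The stressed group is 2 libraries from mice injected with RTX, an agent given only as these letters, and the control group is 2 libraries from mice injected with saline. Cells of both groups were taken 12 h after injection, and no label read here gives strain, genotype, age or the number of animals in a library. The labels do not say whether the 2 libraries of a group come from separate animals, so each p-value rests on a spread among libraries that may be technical.

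Mitochondria keep a small genome of their own, and its few protein-coding mRNAs, all for subunits of the respiratory chain and the ATP synthase, are translated inside the organelle by the mitochondrial ribosome. Its 2 ribosomal RNAs come from the mitochondrial genome, but each of its proteins is encoded in the nucleus, made in the cytosol and imported. Many of these proteins have bacterial counterparts, and others were gained in the mitochondrial lineage. Loss of several of them is known to impair oxidative phosphorylation.

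The libraries held 9273652 to 11854280 reads on genes, of which 29517 to 32076 fell on the 77 members. The libraries carried the defining transcripts of melanocytes, with Dct at 15925 and 13834 counts per 1000000 reads (CPM) in stressed replicates 1 and 2 and at 9776 and 11110 CPM in control replicates 1 and 2. They also carried keratinocyte RNA, at 11577 and 9831 CPM in the stressed and 29704 and 17963 CPM in the control libraries, summed over 17 markers, 16 of which had lower values in stressed cells. Melanocyte markers went the other way, with 9 of 10 higher in stressed cells. Their sum was 40478 and 37968 CPM in the stressed and 23186 and 22049 CPM in the control libraries. Fibroblast markers summed to at most 25.2 CPM and immune cell markers to at most 42.3 CPM in any library. Of the 8 endothelial and Schwann cell markers, Cdh5 was at 0 counts throughout, but 3 passed the filter on low counts. Those 3 averaged 10.5 to 455 transcripts per 1000000 over the 4 libraries, so RNA of this list was present. All 3 had lower values in stressed cells. Lum and Twist2 of the fibroblast list were at 0 counts throughout. Mitochondrially encoded genes held 0.479% and 0.405% of reads in the stressed and 0.906% and 2.07% in the control libraries.

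The promoters of these genes were searched for the letters of motifs known from nuclear genes for mitochondrial proteins. The 64 tested genes whose RefSeq start (mouse build GRCm38.p6, the mm10 assembly) lies within 1000 bp of the start in the count tables had a window of 250 bases before to 50 after the start. On either strand, the ETS letters CCGGAAG stood in 22 of the 64 windows (34.4%), against 18.6% of the 9240 windows of all tested genes. The NRF1 letters, GCGCA and GCGC parted by any 1 base, stood in 13 (20.3%), against 10.9%, and the YY1 letters AAGATGGCG in 6 (9.38%), against 3.26%. The GC box GGGCGG was found in 51.6% of the windows, against 66.5%, and the median GC content was 58.2%, against 61.3%. ETS factors such as GABP, NRF1 and YY1 are known from other cells as regulators of nuclear genes for mitochondrial proteins. At least 1 of the 3 motifs other than the GC box stood in 35 of the 64 windows (54.7%), against 29.4% of the 9240. A match of letters is not a binding site.

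The windows below belong to the members with the highest and the lowest fold change (Mrpl44 and Mrpl1), to a pair of members that start head to head on chromosome 7 (Mrps11 and Mrpl46), and to a member with both an ETS and an NRF1 match (Mrpl57). Capitals mark matches to the ETS, NRF1 or YY1 letters on either strand.
Mrpl44, chr1:79775768-79776067, plus strand: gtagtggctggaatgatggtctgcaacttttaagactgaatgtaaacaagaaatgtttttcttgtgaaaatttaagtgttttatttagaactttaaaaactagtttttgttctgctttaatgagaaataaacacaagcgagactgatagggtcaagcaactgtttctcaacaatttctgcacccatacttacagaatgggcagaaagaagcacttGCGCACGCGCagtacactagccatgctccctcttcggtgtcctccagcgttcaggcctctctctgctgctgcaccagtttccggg
Mrpl1, chr5:96209865-96210164, plus strand: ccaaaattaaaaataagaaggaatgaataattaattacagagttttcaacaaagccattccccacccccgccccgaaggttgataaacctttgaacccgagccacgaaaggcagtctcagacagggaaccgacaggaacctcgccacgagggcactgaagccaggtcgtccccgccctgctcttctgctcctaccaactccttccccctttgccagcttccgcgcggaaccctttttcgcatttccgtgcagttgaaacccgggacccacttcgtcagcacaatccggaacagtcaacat
Mrps11, chr7:78782881-78783180, plus strand: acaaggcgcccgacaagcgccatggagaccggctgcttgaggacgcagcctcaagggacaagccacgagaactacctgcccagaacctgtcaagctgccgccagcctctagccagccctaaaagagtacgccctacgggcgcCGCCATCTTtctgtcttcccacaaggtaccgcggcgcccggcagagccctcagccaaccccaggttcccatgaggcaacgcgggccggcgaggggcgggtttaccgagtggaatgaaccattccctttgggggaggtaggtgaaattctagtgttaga
Mrpl46, chr7:78783040-78783339, minus strand: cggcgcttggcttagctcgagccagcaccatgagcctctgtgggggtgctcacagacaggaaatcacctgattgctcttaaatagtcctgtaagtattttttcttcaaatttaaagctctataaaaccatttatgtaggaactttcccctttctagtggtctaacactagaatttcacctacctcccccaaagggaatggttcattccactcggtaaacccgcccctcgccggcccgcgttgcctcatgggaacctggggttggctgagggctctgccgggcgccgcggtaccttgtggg
Mrpl57, chr14:57825989-57826288, plus strand: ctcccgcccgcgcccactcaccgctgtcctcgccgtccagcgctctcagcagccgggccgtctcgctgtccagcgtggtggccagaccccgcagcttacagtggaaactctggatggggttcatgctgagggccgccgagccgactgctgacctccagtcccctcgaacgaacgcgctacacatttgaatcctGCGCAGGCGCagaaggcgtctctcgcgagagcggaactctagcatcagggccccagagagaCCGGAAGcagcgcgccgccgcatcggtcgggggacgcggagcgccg
The NRF1 match of Mrpl44 begins 35 bases before its start, and that of Mrpl57 57 bases before. The YY1 match of Mrps11 lies on the opposite strand, beginning 108 bases before the start. The windows of Mrpl1 and Mrpl46 hold none of these letters. The median log2 fold change, stressed over control, was 0.06 among the 35 members with such letters and -0.02 among the 29 without.

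In stressed cells the mitochondrial ribosomal protein mRNAs were close to their level in control cells. Summed over the 77 genes they stood at 2915 and 2917 CPM in stressed replicates 1 and 2, against 3162 and 2661 CPM in control replicates 1 and 2. The stressed libraries were thus nearly equal and lay between the controls, which differed more from each other than either did from the stressed cells. Of the 77 genes, 76 passed the filter on low counts and were tested. The fitted log2 fold changes ran from -0.58 to 0.46 with a median of 0.02, and the median over all 13348 tested genes was -0.01. By that fit 40 members were higher and 36 lower, and 49.1% of all tested genes were higher.

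No member passed the test. The edgeR quasi-likelihood test called 0 of 76 members at an adjusted p below 0.05, with a smallest adjusted p of 0.517, but it also called 0.0% of all tested genes. At an unadjusted p below 0.05 edgeR found 0 members, against 12.8% of all tested genes. DESeq2, which called 4.4% of tested genes after adjustment, called 0 members, with a smallest adjusted p of 0.605, and had 0 members at an unadjusted p below 0.05 against 13.3% of tested genes. The limma-voom fit likewise had 0 members after adjustment and 0 at an unadjusted p below 0.05, against 0.0% and 12.7% of tested genes. The data bound the differences more closely than a missed threshold does. For 67 of the 76 members the 95% interval of the log2 fold change lay wholly between -1 and 1. That is within a factor of 2 in either direction, and it held for 6615 of all 13348 tested genes. These intervals rest on a spread among libraries that may be technical. The exceptions among the members were Mrpl1, Mrpl11, Mrpl34, Mrpl44, Mrps11, Mrps16, Mrps33, Mrps34 and Mrps36. An absolute log2 fold change of at least 0.5 was fitted for 1 member, Mrpl1, and for 30.5% of all tested genes.

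**Figure D1:**
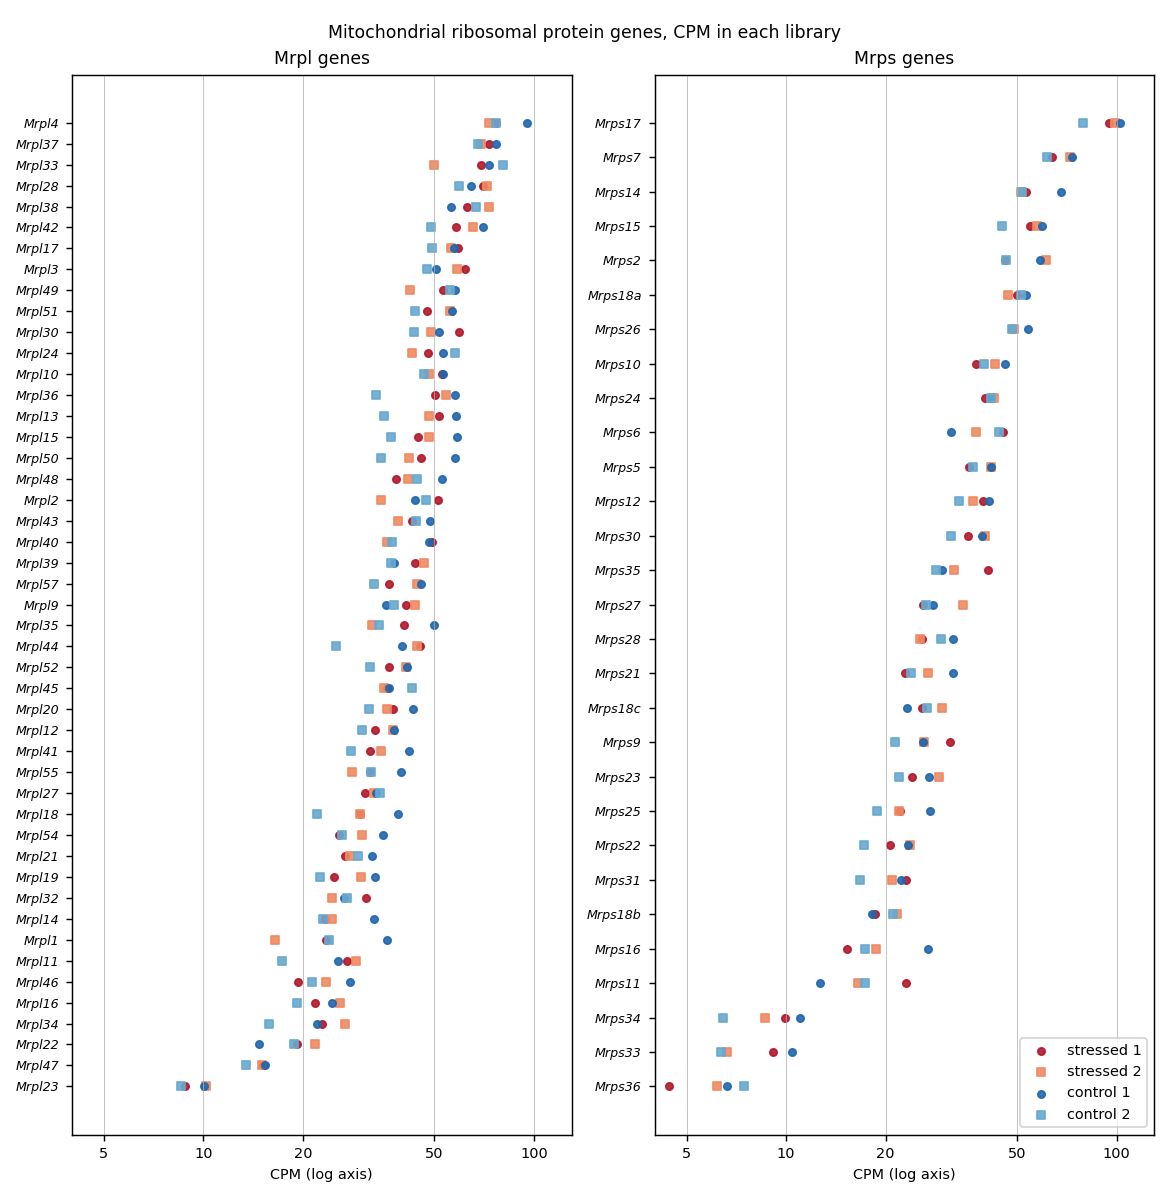
CPM on a log axis for each of the 76 tested members, with Mrpl genes on the left and Mrps genes on the right, and 1 point for each of the 2 stressed and 2 control libraries. The groups do not overlap in 24 of the 76 rows and overlap in the others. Control 1 is often the highest and control 2 the lowest point of a row.

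Neither subunit held a called member. The 47 tested Mrpl genes had a median log2 fold change of -0.004, with 23 higher and 24 lower, and the 29 Mrps genes had a median of 0.03, with 17 higher and 12 lower. The large subunit as it is built, which also holds the products of Mrps18a and Mrps30, was divided by whether a protein was listed with a bacterial counterpart. Its 30 members with a bacterial counterpart had a median of 0.02 and its 19 tested members without one had a median of -0.02. In the small subunit the medians were 0.02 over 16 members with a bacterial counterpart and 0.10 over 10 without. Mrps18a and Mrps18b were counted here without a bacterial counterpart and Mrps18c with one, although all of them descend from the same gene. The groups did not overlap in 19 of 47 Mrpl genes (40.4%) and in 5 of 29 Mrps genes (17.2%), against 44.7% of all tested genes, and the difference between the subunits was not tested. None of the 4 groups so divided held a member with an unadjusted p below 0.05 by edgeR or DESeq2, against the 12.8% and 13.3% given above.

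**Figure D2:**
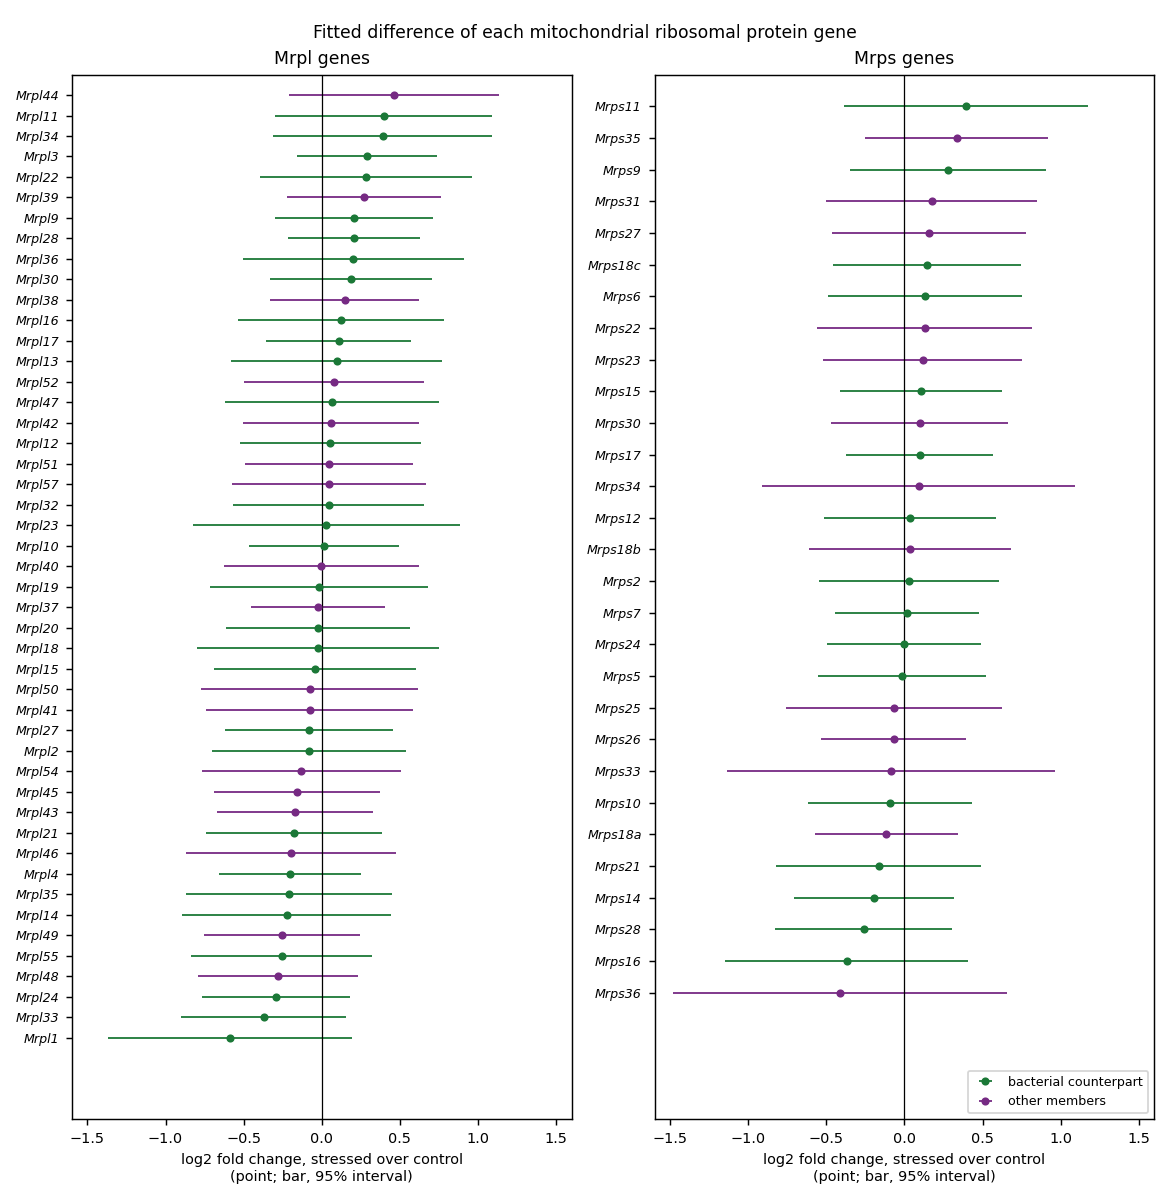
Fitted log2 fold change, stressed over control, of each tested member with its 95% interval, for Mrpl genes (left) and Mrps genes (right). Green marks proteins with a bacterial counterpart and purple the other members, and every interval includes 0.

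Among large subunit proteins with a bacterial counterpart, Mrpl1 had the lowest fold change of all members. It is the protein of the L1 stalk at the exit site for tRNA. Mrpl1 had 23.5 and 16.5 CPM in stressed replicates 1 and 2, against 35.9 and 24.1 CPM in control replicates 1 and 2. Both stressed libraries were lower than both controls, by a log2 fold change of -0.58 (SE 0.32, 95% interval -1.37 to 0.20), and edgeR's adjusted p was 0.517. With 1 library left out the difference ran from -0.86 to -0.26, at -0.26 without control replicate 1 and -0.34 without stressed replicate 2. Mrpl11, at the base of the other stalk, where translation factors dock, had 27.2 and 29.0 CPM in the stressed libraries, against 25.5 and 17.3 CPM in the controls. Its log2 difference of 0.40 (SE 0.29) shrank to 0.14 against control replicate 1 alone and was 0.71 against control replicate 2 alone. Mrpl12, the flexible protein of the same stalk, which in human cells also binds the mitochondrial RNA polymerase, had 33.1 and 37.4 CPM in the stressed libraries, against 37.7 and 30.2 CPM in the controls. The stressed values of Mrpl12 lay inside the control range, and its difference of 0.06 had an interval of -0.52 to 0.63.

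No member described for the catalytic centre or the exit tunnel passed the test. Mrpl3, whose bacterial counterpart reaches towards the peptidyl transferase centre, had 61.9 and 58.5 CPM in the stressed libraries, against 50.7 and 47.6 CPM in the controls. The groups did not overlap, and the log2 difference of 0.29 with an SE of 0.19 did not pass the test (edgeR adjusted p = 0.578). Mrpl22 and Mrpl4, whose bacterial counterparts line the tunnel for the nascent chain, lay on opposite sides. Mrpl22 had 19.2 and 21.7 CPM in the stressed libraries, against 14.8 and 18.8 CPM in the controls. Mrpl4 had 76.7 and 73.2 CPM in the stressed libraries, against 95.4 and 77.0 CPM in the controls, and its log2 difference of -0.20 was -0.03 without control replicate 1. Mrpl24, whose bacterial counterpart sits at the tunnel exit, had 47.7 and 42.8 CPM in the stressed libraries, against 53.0 and 57.8 CPM in the controls. Mrpl33 had 69.2 and 49.7 CPM in the stressed libraries, against 73.1 and 80.8 CPM in the controls. Mrpl34 had 22.8 and 26.7 CPM in the stressed libraries, against 22.1 and 15.8 CPM in the controls, and Mrpl55 had 31.8 and 28.2 CPM, against 39.5 and 32.2 CPM. For Mrpl24, Mrpl33, Mrpl34 and Mrpl55 the groups did not overlap, with log2 differences of -0.29, -0.37, 0.39 and -0.26. With 1 library left out, Mrpl33 ran from -0.63 without stressed replicate 1 to -0.14 without stressed replicate 2. Against control replicate 2 alone Mrpl34 stood at 0.66 and Mrpl55 at -0.089, and against control replicate 1 alone they stood at 0.17 and -0.39.

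Of the large subunit proteins without a bacterial counterpart, Mrpl44 had the highest fold change of all members. Mrpl44 (chromosome 1, 79776018-79781445, mm10) encodes a protein with a ribonuclease III-like fold, and mutations of its human counterpart cause cardiomyopathy. It had 45.2 and 44.4 CPM in the stressed libraries, against 40.0 and 25.2 CPM in the controls. Both stressed libraries were higher, by 0.46 on the log2 scale (SE 0.28), and edgeR's adjusted p was 0.556. The value rested on control replicate 2, being 0.84 against that library alone and 0.17 against control replicate 1 alone. Mrpl48 had 38.2 and 41.6 CPM in the stressed libraries, against 52.6 and 44.3 CPM in the controls. Mrps30, whose name is that of a small subunit protein but whose product sits in the large subunit, had 35.6 and 40.0 CPM in the stressed libraries, against 39.1 and 31.5 CPM in the controls.

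The 3 Mrps18 genes descend from 1 ancestral gene and their products sit at different places, that of Mrps18a in the large subunit and those of Mrps18b and Mrps18c in the small subunit. Mrps18a had 49.8 and 46.7 CPM in the stressed libraries, against 53.2 and 51.5 CPM in the controls. Mrps18b had 18.6 and 21.6 CPM in the stressed libraries, against 18.2 and 21.1 CPM in the controls. Mrps18c had 25.8 and 29.6 CPM in the stressed libraries, against 23.2 and 26.8 CPM in the controls. Their log2 differences of -0.12, 0.03 and 0.15 were all smaller than their SEs of 0.19, 0.27 and 0.25.

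In the small subunit, Mrps12, a protein of the decoding centre, had 39.4 and 36.8 CPM in the stressed libraries, inside the control range of 33.3 to 41.0 CPM. Mrps16, whose human counterpart is a mitochondrial disease gene, had 15.3 and 18.7 CPM in the stressed libraries, against 26.8 and 17.3 CPM in the controls, and its log2 difference of -0.37 was -0.01 without control replicate 1. Mrps28 had 25.8 and 25.4 CPM in the stressed libraries, against 32.0 and 29.3 CPM in the controls. Mrps22, a protein of the mitochondrial lineage that is also a human disease gene, had 20.6 and 23.7 CPM in the stressed libraries, against 23.4 and 17.2 CPM in the controls. Mrps35 had 40.9 and 32.2 CPM in the stressed libraries, against 29.6 and 28.5 CPM in the controls, and Mrps9 had 31.3 and 26.2 CPM, against 26.0 and 21.3 CPM. The groups of Mrps28, Mrps35 and Mrps9 did not overlap, and their edgeR adjusted p-values were 0.713, 0.635 and 0.725. Mrps36 matches the naming pattern, but its product belongs to the 2-oxoglutarate dehydrogenase complex. It had 4.41 and 6.18 CPM in the stressed libraries, against 6.64 and 7.46 CPM in the controls, with an interval of the log2 difference from -1.48 to 0.66, the widest of the members named here.

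In 24 of the 76 members the groups did not overlap, with both stressed libraries above both controls in 10 and below them in 14. Over all tested genes this was the case for 44.7%, with 21.8% above and 22.9% below, so the members' count was not above the background. In 25 members both stressed libraries lay between the controls, against 18.8% of all tested genes. The 10 that were higher had log2 fold changes of 0.21 to 0.46, and the 14 that were lower had -0.58 to -0.08.

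The difference that most members shared was between the control libraries. In 61 of 76 members control replicate 1 was higher than control replicate 2, against 49.7% of all tested genes, with a median log2 difference of 0.29 and a range of -0.48 to 0.80. Between the stressed libraries, replicate 1 was the higher in 34 of 76 members, against 50% of all tested genes, with a median of -0.06. Mrpl13 had 51.4 and 48.0 CPM in the stressed libraries, against 58.2 and 35.1 CPM in the controls. Mrpl36, a small protein with a bacterial counterpart, had 50.2 and 54.2 CPM in the stressed libraries, against 57.7 and 33.2 CPM in the controls. The stressed libraries of both genes lay inside the control range.

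**Figure D3:**
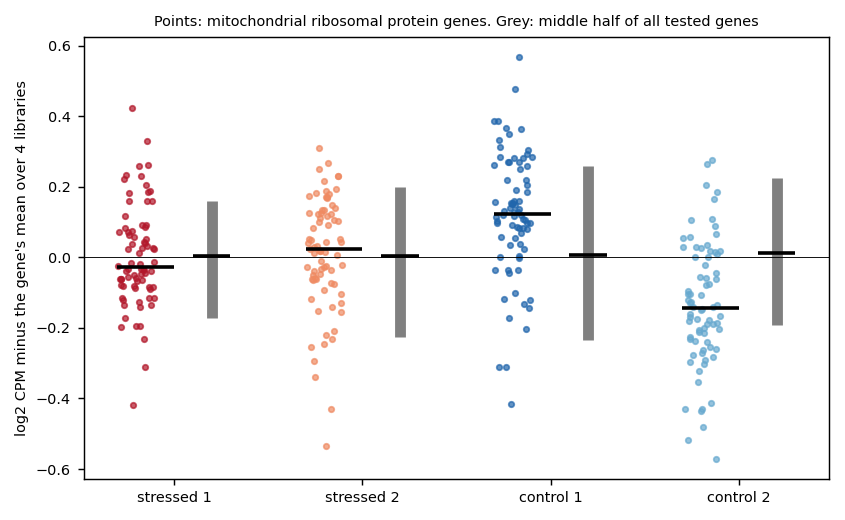
For each library, the log2 CPM of each tested member minus that gene's mean over the 4 libraries (points, with their median as a black line), beside the interquartile range of the same quantity over all 13348 tested genes (grey bar, with its median). Members centre at -0.03 and 0.02 in stressed 1 and 2, and at 0.12 and -0.14 in control 1 and 2.

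The choice of control therefore set the sign of the list. Without control replicate 1 the median log2 fold change of the members was 0.19, with 58 of 76 higher, against 51.6% of all tested genes. Without control replicate 2 it was -0.10, with 20 of 76 higher, against 51.2% of all tested genes. Against control replicate 2 alone, edgeR gave 3 members an unadjusted p below 0.05, Mrpl44, Mrpl36 and Mrpl11, all higher, where 17.2% of tested genes had one. Against control replicate 1 alone it gave 1, Mrpl1, with a log2 fold change of -0.84, where 20.8% of tested genes had one. None of them passed adjustment over all genes, although 4.52% and 5.34% of tested genes did so in these fits. Leaving out 1 library moved the edgeR fold change of 26 of the 30 named members by over 1.5 times, Mrpl3, Mrpl24, Mrpl28 and Mrps28 being the exceptions. It turned the sign of 10, Mrpl12, Mrpl36, Mrpl42, Mrpl47, Mrps12, Mrps18b, Mrps22, Mrps25, Mrps30 and Mrps34. Keratinocyte markers, at 29704 CPM in control replicate 1 and 17963 CPM in control replicate 2, moved with this difference between the controls, as did the mitochondrially encoded share in the opposite direction, and their part in it was not tested. Fewer cells of a type and less RNA per cell cannot be told apart in such bulk samples.

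Per transcript length the members spanned a 27.3-fold range. Levels in transcripts per 1000000 (TPM), which divide counts by the summed length of a gene's annotated exons, averaged 10.8 to 296 over the 4 libraries, with a median of 55.7, against 25.8 for all tested genes. The middle of the distribution, from the first to the third quartile, ran from 30.1 to 105 TPM. Mrpl42 was the highest at 309 ± 29.0 TPM in stressed and 282 ± 66.7 TPM in control cells (SD, n = 2 each). Mrpl4 followed at 194 ± 4.77 and 213 ± 28.5 TPM, Mrpl36 at 194 ± 12.0 and 160 ± 58.5 TPM, and Mrpl28 at 186 ± 5.06 and 154 ± 6.09 TPM, in stressed and control cells. The intervals of the log2 differences of these 4 genes all included 0, and the levels of Mrpl4 and Mrpl36 in stressed cells differed by less than their SD. The lowest tested members were Mrpl47, at 11.4 ± 0.0371 and 10.3 ± 0.760 TPM, and Mrps25, at 11.2 ± 0.0744 and 11.1 ± 2.68 TPM, in stressed and control cells. By class, the median level was 64.1 TPM for large subunit proteins with a bacterial counterpart and 74.8 TPM for those without, and it was 85.8 and 24.1 TPM in the small subunit.

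Some members at low levels had overlapping annotation and others had none, and the part of overlap in these levels was not tested. The exons of 24 of the 77 members share bases with another gene, and by default the counting program assigns a read that overlaps exons of more than 1 gene to none. Mrpl53 (chromosome 6, 83109040-83109939) shares 88.0% of its exon length with Ccdc142 and Ccdc142os, and it had 2 and 1 reads in the stressed and 0 reads in both control libraries, below the filter on low counts. Mrps34 shares 77.8% with Mapk8ip3 and Nme3 and was at 15.0 ± 1.37 TPM in stressed and 13.4 ± 4.77 TPM in control cells, with 9.95 and 8.64 CPM in the stressed libraries, against 11.0 and 6.44 CPM in the controls. Mrps25 shares 69.8% with Nr2c2. Mrps35 and Mrps9, whose exons overlap no other gene, were also low, averaging 12.4 and 14.8 TPM over the 4 libraries. Mrps30 and Mrpl24 share 37.8% and 26.3% of their exon length, yet averaged 74.8 and 72.4 TPM. Counting used no strand option, so the strand of a read played no part in its assignment. The 53 tested members with no such overlap had a median log2 fold change of 0.03, and the 23 with one had a median of 0.02.

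The members lie on 17 chromosomes, with 10 on chromosome 11 and 8 on chromosome 17. A gene on the opposite strand starts within 1000 bp upstream of 18 of the 76 tested members (23.7%), against 13.4% of 13347 tested genes. The distance ranged from 3 to 935 bp with a median of 112 bp. Among these neighbours are Sars2, which encodes the mitochondrial seryl-tRNA synthetase, 172 bp from Mrps12, and Fau, which encodes a cytosolic ribosomal protein, 137 bp from Mrpl49. None of the 18 neighbours was called by edgeR or DESeq2, against 0.0% and 4.4% of tested genes. The pair Mrps11 and Mrpl46, both of the mitochondrial ribosome, overlaps head to head. Mrps11 had 23.0 and 16.5 CPM in the stressed libraries, against 12.6 and 17.4 CPM in the controls, and Mrpl46 had 19.3 and 23.5 CPM, against 27.9 and 21.3 CPM. Their log2 differences of 0.40 and -0.20 had intervals that include 0.

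Other genes of mitochondrial translation were taken from lists by known function. The 6 subunits that carry other names, such as Dap3 and Ptcd3, had a median log2 fold change of 0.03, and their differences lay between -0.22 and 0.23. The 28 assembly factors had a median of -0.16 with 8 higher and 20 lower. By edgeR 0 of the 28 had an unadjusted p below 0.05, against 12.8% of all tested genes. Noa1, a GTPase of assembly, had 57.4 and 68.5 CPM in the stressed libraries, against 48.5 and 47.0 CPM in the controls, and Fastkd5, a mitochondrial RNA-processing protein, had 11.7 and 16.5 CPM, against 11.5 and 9.49 CPM. At the low end, Ftsj2, a methyltransferase of the large ribosomal RNA, had 5.91 and 5.27 CPM, against 12.5 and 7.79 CPM, and Ybey had 6.29 and 4.36 CPM, against 11.8 and 6.35 CPM.

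The 15 factors of mitochondrial translation had a median log2 fold change of 0.04. Lrpprc, which stabilises mitochondrial mRNAs, had 112 and 147 CPM in the stressed libraries, against 89.5 and 90.3 CPM in the controls, with a log2 difference of 0.53 and an edgeR adjusted p of 0.354. Mrrf, the ribosome recycling factor, stood at 0.52, while the initiation factor Mtif3 and the translational activator Taco1 stood at -0.35 and -0.22. Of the 14 tested genes of mitochondrial transcription and its regulators, Ppargc1a, a coactivator of mitochondrial biogenesis, had 49.1 and 50.6 CPM in the stressed libraries, against 19.3 and 36.9 CPM in the controls. Its relative Pprc1 had 87.2 and 148 CPM, against 75.6 and 72.4 CPM. The groups of both genes did not overlap, but their edgeR adjusted p-values were 0.380 and 0.382. Myc and Polrmt, the mitochondrial RNA polymerase, stood lowest in that list, at -0.36 and -0.23.

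The mRNAs that this ribosome translates stood at a different level in the groups. All 8 tested mitochondrially encoded mRNAs had lower values in stressed cells, at a median log2 difference of -1.70. DESeq2 called 7 of them lower, against 356 of 13348 tested genes called lower, while edgeR called 0 of them. Against control replicate 2 alone that list had a median of -2.18, and against control replicate 1 alone it had -0.95. Of these, mt-Co1, which encodes the catalytic core of cytochrome c oxidase, had 1030 and 822 CPM in the stressed libraries, against 2230 and 4556 CPM in the controls. Of the other 5, mt-Co2, mt-Co3, mt-Atp6 and mt-Atp8 were listed at 0 in every library and mt-Nd4l had 1 read in control replicate 2. Only alignments named unique with a mapping quality of at least 30 were counted, so a listed 0 need not mean an absent mRNA. Whether reads of these 5 mRNAs were lost in that way was not tested, and the mitochondrially encoded shares given above hold almost none of them. In the same libraries the summed mitochondrial ribosomal protein mRNAs stood at 2915 and 2917 CPM in stressed cells, against 3162 and 2661 CPM in controls. The difference between the lists was not tested.

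The cytosolic ribosomal protein genes, which encode the ribosome outside mitochondria, also differed between the control libraries. In 79 of 81 tested genes control replicate 1 was higher than control replicate 2, against 49.7% of all tested genes, with a median log2 difference of 0.46. In 50 of the 81 both stressed libraries lay between the controls, against 18.8% of all tested genes. The median log2 fold change of the 81 was 0.11, with 0.37 against control replicate 2 alone and -0.13 against control replicate 1 alone. By edgeR 0 of the 81 were called and 1, Rpl34, had an unadjusted p below 0.05, against 12.8% of all tested genes. Rpl34 had 94.0 and 94.5 CPM in the stressed libraries, against 71.2 and 62.6 CPM in the controls.

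**Figure D4:**
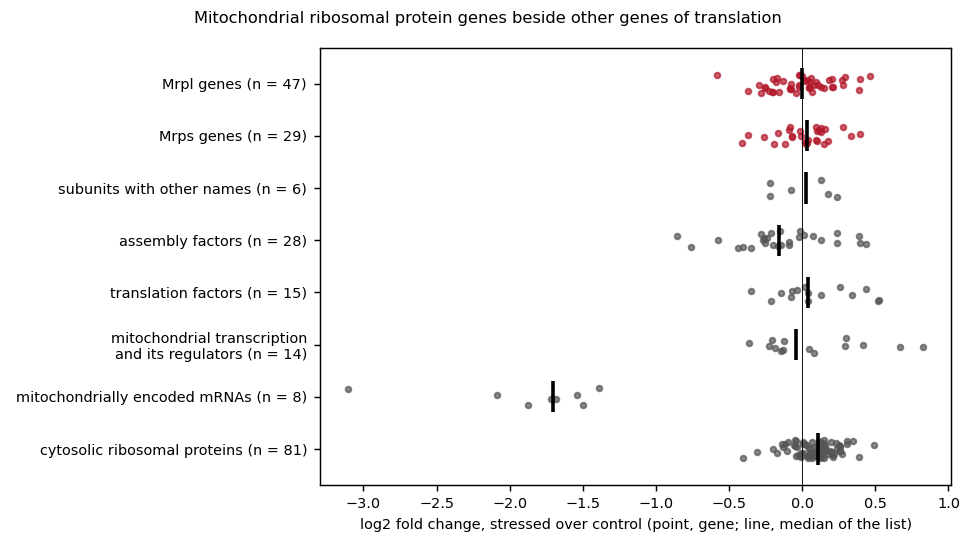
Fitted log2 fold change, stressed over control, of each tested gene (points) and the median of its list (black line). The Mrpl and Mrps genes have medians of -0.004 and 0.03, the other nuclear lists have medians of -0.16 to 0.11, and the 8 mitochondrially encoded mRNAs lie between -3.10 and -1.39.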

How the data were processed

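Libraries of sorted melanocyte stem cells, 2 stressed and 2 control, were made with Smart-Seq V4, per the labels. The deposited values are raw read counts per gene from featureCounts 1.6.1, per the file headers, with exons summed by gene name on mm10, mapping quality of at least 30, no strand option, and input alignments named unique. Trim Galore 0.4.1, STAR 2.5.3 and DESeq2 1.22.2 are listed in the submitters' processing notes. In the headers, the inputs of stressed replicates 1 and 2 are numbered 2 and 3.

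Counts of all 27933 genes were fitted with edgeR 4.0.16 (R 4.3.3) by its two-sided quasi-likelihood test of group, with TMM scaling and filterByExpr (minimum count 10). This left 13348 genes, over which p-values were adjusted by Benjamini-Hochberg and called at 0.05. An SE is the size of the log2 fold change over the root of F. CPM uses TMM-scaled totals. A count of 0 allows up to 3 reads, or 0.254 to 0.321 CPM, for counting error only. Alternatives were DESeq2 1.42.0, limma-voom (limma 3.58.1), other scalings and filters, a replicate block, each library left out, and mitochondrially encoded genes left out. DESeq2 with the block or with a library left out was added after seeing the data. The fits were tested on 10 sets of simulated data, in each of which edgeR missed most genes changed by 1 log2 unit and found most of those changed by 2. In each set DESeq2 found more genes changed by 1 log2 unit than edgeR did, but it also made more false calls. The share of false calls among its calls was above the 0.05 threshold in each set.

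The members, the lists and the rule for named genes were chosen with earlier results of these data known. By that rule 30 members are named: the 8 highest and 8 lowest fold changes at 5 CPM or more, the 4 highest and 2 lowest levels per length, and 11 of known role. Of other lists the 2 highest and 2 lowest are named where described. Mrpl13, Mrpl46, Mrpl57, Sars2, Fau, mt-Co1 and Dct were added after their values were seen. The summed level of the endothelial and Schwann cell list is not reported here. Over the members, libraries of a group differed beyond sampling noise (chi-square over its degrees of freedom 4.78 for the stressed and 7.40 for the control pair).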

Additional observations from a re-analysis of the deposited data

How the results depend on the processing

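No mitochondrial ribosomal protein gene was called under any of the 17 alternatives, single libraries left out included. The count over all genes was 0 by the edgeR fit and 760 with no low-count filter, 587 with the DESeq2 Wald test and 486 with that test and the replicate block, and with 1 library left out it ran from 0 to 800. The members' median of 0.02 ran from -0.10 to 0.19 with 1 library left out, that of the Mrpl genes from -0.14 to 0.18, and that of the Mrps genes from -0.10 to 0.20. Under the scalings, filters, tests and the block, no named member turned its sign. Of 510 values of named members under alternatives 30 had the other sign, all with 1 library left out, in 10 genes: Mrpl42 (-0.18 to 0.35), Mrpl36 (-0.14 to 0.66), Mrpl47 (-0.022 to 0.17), Mrps25 (-0.31 to 0.23), Mrpl12 (-0.094 to 0.24), Mrps12 (-0.10 to 0.21), Mrps34 (-0.24 to 0.54), Mrps22 (-0.073 to 0.38), Mrps30 (-0.046 to 0.27) and Mrps18b (-0.073 to 0.15). The lone library of a group is then assumed to vary like the other group. The cause of these shifts was not tested.

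The groups share replicate numbers only, and the deviations of same-numbered libraries had a correlation of 0.17 across all tested genes and of -0.10 across the members. With the replicate block edgeR called 0 members and 0 genes, and the members' median was 0.03. With 2 libraries a group, the intervals of 9 of the 76 members reach past 1 log2 unit.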
